A study of Homo sapiens with 6 samples.

Results

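Nuclear receptors are transcription factors, most of which bind a small lipophilic ligand and then switch genes on or off by exchanging corepressor for coactivator proteins. Many bind DNA as a pair with a retinoid X receptor. In hepatocytes they set bile acid, cholesterol, fatty acid and glucose metabolism. The transcripts of 42 nuclear receptors, taken by gene symbol from a count table of 58735 genes, are described here in HepaRG cells. NR1I2 and NR1I3 are not among them. The rule that picks the members uses gene symbols, not measured values, but it was set with earlier results of these data known. All 42 symbols were found, each on 1 row, 41 had at least 1 count, and 37 passed the filter on low counts and were tested among 17844 genes.

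HepaRG cells are human bipotent liver progenitors, and DMSO drives them to hepatocyte-like and biliary-like cells. All libraries came from cells differentiated in 1.8% DMSO, held for 48 h after siRNA transfection and then given oleic acid at 800 µM with palmitic acid at 400 µM for 24 h. The siRNAs of the study were aimed at PTPRD, a receptor-type tyrosine phosphatase, and STAT3, a transcription factor activated by interleukin-6 family cytokines. Labels put 3 libraries in PTPF (n = 3) and 3 in STATF (n = 3) without spelling these names out. No library is labelled as having a control siRNA, and none was analysed here. Without one, a gene raised under one label cannot be told apart from a gene lowered under the other.

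Totals ran from 33225627 to 36785080 counts in libraries labelled PTPF, and from 36443380 to 40796767 counts in those labelled STATF. STAT3 averaged 443 ± 12.2 CPM (counts scaled to library size by TMM) in libraries labelled PTPF, against 119.6 ± 10.6 CPM in those labelled STATF (SD, n = 3 each), which is 1.89 on the log2 scale (SE 0.063, edgeR adjusted p = 2.47e-18). PTPRD averaged 11.5 ± 1.37 CPM in libraries labelled PTPF, against 11.5 ± 0.603 CPM in those labelled STATF (SD, n = 3 each), with a 95% interval of its log2 fold change from -0.19 to 0.19 (edgeR adjusted p = 0.999). PTPRD thus did not separate the groups, and directions below go by the label of the libraries. The sum of 10 hepatocyte markers was 42135 to 48928 CPM in libraries labelled PTPF, against 39922 to 40820 CPM in those labelled STATF, with 2 members higher and 4 lower in edgeR. The sums of 3 other marker lists overlapped between the groups. Those of 8 biliary and progenitor markers were 299 to 334 CPM under the PTPF label and 287 to 304 CPM under the STATF label. EPCAM had 0 counts. Single markers of this list did differ in edgeR, in both directions. Of 5 tested, CD24 was higher (log2 fold change 0.62), and KRT19 (-0.57) and SOX9 (-0.40) were lower. The sums of 8 mesenchymal markers were 52.2 to 68.6 CPM under PTPF and 53.9 to 72.3 CPM under STATF. VIM had 0 to 6 counts, and of 5 tested only ACTA2 passed, as lower (-0.35). The sums of 6 immune markers were 1.04 to 1.66 CPM under PTPF and 1.5 to 1.95 CPM under STATF, with CD3E at 0. The sum of 5 endothelial markers was 33.4 to 39.7 CPM in libraries labelled PTPF, against 57.7 to 61.5 CPM in those labelled STATF, most of it KDR (means of 35.8 CPM under PTPF and 57.6 CPM under STATF), with CDH5 at 0 to 1 count. The part of any of these markers in the values below was not tested, and in bulk RNA fewer cells of a type and less RNA per cell cannot be told apart.

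In PTPF-labelled libraries 3 of the 37 receptors tested were higher and 14 lower, at an edgeR adjusted p under 0.05. These are 45.9% of the receptors, where 21.6% of all genes tested passed, 10.1% higher and 11.6% lower. Retinoic acid receptor alpha (RARA), the bile acid receptor FXR (NR1H4) and PPARD were higher. The orphan receptors NR4A1 and ESRRG and the retinoic acid receptors RARB and RARG were lower by the largest ratios among the 14. Most differences were small, as 13 of the 17 were under 1.5-fold. The median log2 fold change was -0.14 over the 37 receptors and 0.00 over all genes tested. CPM ranges of the groups did not overlap for 22 of 37 receptors, 5 higher and 17 lower, and for 35.7% of all genes tested, 17.3% higher and 18.4% lower. Over all genes 1801 passed as higher and 2062 as lower. Scaling by library totals alone gave 1164 and 2981, shifted the median of all genes to -0.06, and gave 2 receptors higher and 17 lower.

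**Figure D1:**
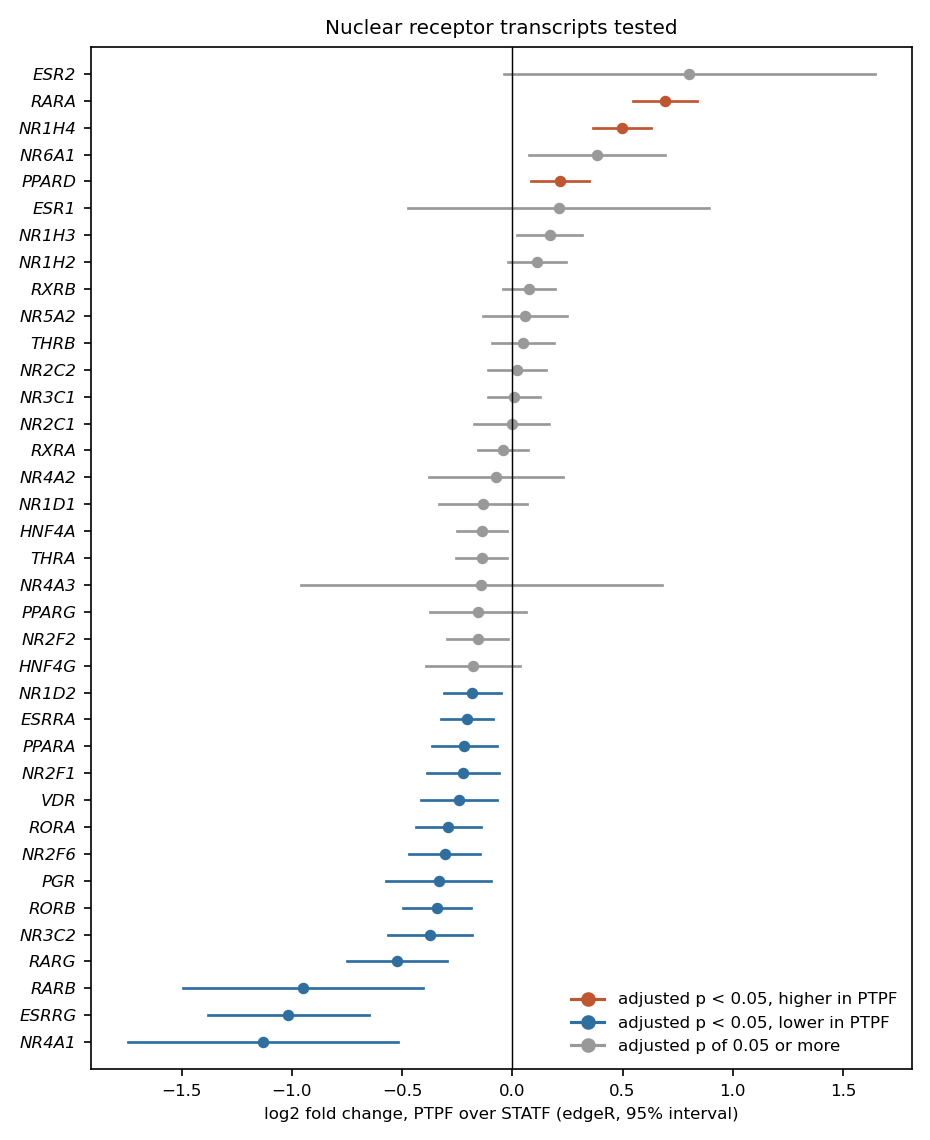
Log2 fold change of each of the 37 receptors tested, PTPF over STATF, with its 95% interval from edgeR (horizontal axis), ordered by value. Coloured points passed an adjusted p of 0.05, 3 to the right of 0 and 14 to the left, and the wide intervals belong to receptors near 1 CPM or less such as ESR2, ESR1 and NR4A3.

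Calls for 8 of the 17 receptors held under every alternative tried, each library left out in turn included: RARA, NR1H4, RARB, RARG, RORA, RORB, NR3C2 and ESRRG. The other 9 calls were lost under at least 1 alternative (PPARA, PPARD, NR1D2, VDR, NR2F1, NR2F6, ESRRA, PGR and NR4A1). With DESeq2, NR1D2 (adjusted p = 0.0629), VDR (0.0934), PGR (0.0886) and NR2F1 (0.0937) did not pass. Without PTPF replicate 1, 3 were higher and 9 lower, without STATF replicate 1, 4 and 9, and without PTPF replicate 2, 5 and 10. Whether replicates came from separate cultures is not stated, and p-values therefore cover the spread of these libraries alone, which may be technical.

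The retinoic acid receptors bind all-trans retinoic acid, the active form of vitamin A, and act paired with retinoid X receptors. RARA, on chromosome 17 from 40309192 to 40357643 (GRCh38), had 26.7, 25.6 and 25.4 CPM in libraries labelled PTPF, against 16.2, 15.9 and 15.9 CPM in those labelled STATF. Every PTPF-labelled library stood above every STATF-labelled one, and neither group spread by more than 0.689 CPM (SD). The log2 fold change was 0.69 (SE 0.0699, edgeR adjusted p = 1.79e-08), or 1.62-fold. RARG, on chromosome 12 from 53210567 to 53232980, went the other way. It had 6.22, 6.54 and 7.69 CPM in libraries labelled PTPF, against 11.0, 9.05 and 9.33 CPM in those labelled STATF, a log2 fold change of -0.52 with an SE of 0.110 (edgeR adjusted p = 0.000835). RARB, on chromosome 3 from 25174332 to 25597932, was scarce, at 23, 30 and 19 counts in libraries labelled PTPF, against 54, 50 and 54 counts in those labelled STATF. In CPM these were 0.698, 0.818 and 0.582 in libraries labelled PTPF, against 1.44, 1.2 and 1.44 in those labelled STATF. The groups did not overlap, and the log2 fold change was -0.95 (SE 0.265, edgeR adjusted p = 0.00979).

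With each level divided by gene length, RARA made up 78.3% ± 1.84 of the summed RAR level in libraries labelled PTPF, against 59.9% ± 2.15 in those labelled STATF (SD, n = 3 each). RARG made up 19.0% ± 2.11 in libraries labelled PTPF, against 33.6% ± 2.01 in those labelled STATF, and RARB 2.71% ± 0.481 in libraries labelled PTPF, against 6.49% ± 0.528 in those labelled STATF (SD, n = 3 each). The ratio of RARA to RARG within a library was 4.65, 4.24 and 3.58 in libraries labelled PTPF, against 1.6, 1.91 and 1.85 in those labelled STATF. This was 1 of 15 ratios between related receptors that were computed after the values were seen, of which 6 did not overlap between the groups. Taken as single genes, 35.7% of all genes tested did not overlap. RARA was higher and RARG and RARB lower without overlap, so the RARA share and the RARA to RARG ratio had to separate. They restate the values of these genes. The ratios of RARA to RARB and of PPARD to PPARA had to separate in the same way. With 3 libraries against 3 no exact permutation test of a ratio can go below p = 0.1, and none was made. Of the RARA exon bases, 17.9% also belong to the antisense genes AC080112.3 (6 to 20 counts per library) and RARA-AS1 (4 to 13 counts), which were far below RARA itself (596 to 940 counts).

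**Figure D2:**
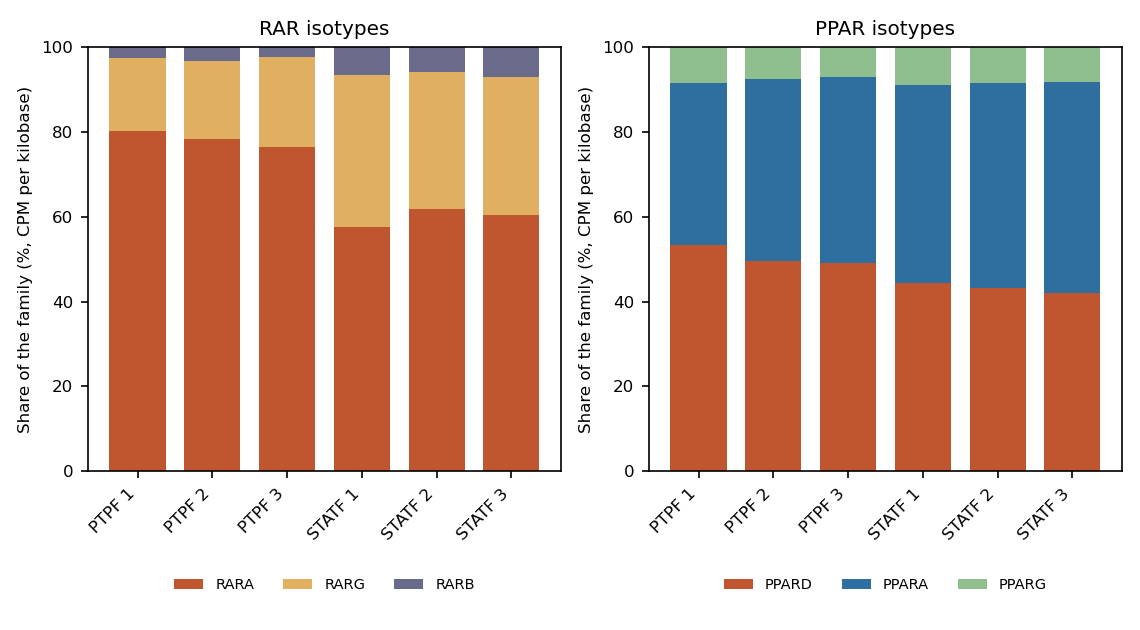
Share of each isotype (vertical axis, percent of the family's summed CPM per kilobase) in each of the 6 libraries, for the RAR family and the PPAR family. RARA took 76.4% to 80.1% in the PTPF-labelled libraries and 57.5% to 61.7% in the STATF-labelled ones, and PPARD took 49.2% to 53.3% in the PTPF-labelled and 41.9% to 44.4% in the STATF-labelled ones.

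RARB is a textbook retinoic acid target: a direct repeat just before one of its starts is bound by RAR and RXR. The promoter sequences of the 3 isotypes are given because the isotypes went in opposite directions. They come from the RefSeq promoter table for GRCh38.p14 and cover the 250 bases before a transcript start. RARA and RARB have 3 and 4 starts there, and the first listed of each is shown, at chr17:40308930-40309179 (plus strand), chr3:25428013-25428262 (plus strand) and, for RARG, chr12:53232210-53232459 (minus strand). Capitals mark a direct repeat of GTTCA with 6 bases between its copies.
RARA: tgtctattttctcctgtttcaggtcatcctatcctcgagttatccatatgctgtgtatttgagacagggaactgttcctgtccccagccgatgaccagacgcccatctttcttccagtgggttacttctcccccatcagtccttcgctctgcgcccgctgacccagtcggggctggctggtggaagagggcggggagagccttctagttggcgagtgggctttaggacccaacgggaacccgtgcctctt
RARB: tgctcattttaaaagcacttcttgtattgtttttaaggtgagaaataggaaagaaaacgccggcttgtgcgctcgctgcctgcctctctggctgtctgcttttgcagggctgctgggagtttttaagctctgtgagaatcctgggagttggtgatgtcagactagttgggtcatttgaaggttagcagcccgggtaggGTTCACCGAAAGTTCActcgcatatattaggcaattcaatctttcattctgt
RARG: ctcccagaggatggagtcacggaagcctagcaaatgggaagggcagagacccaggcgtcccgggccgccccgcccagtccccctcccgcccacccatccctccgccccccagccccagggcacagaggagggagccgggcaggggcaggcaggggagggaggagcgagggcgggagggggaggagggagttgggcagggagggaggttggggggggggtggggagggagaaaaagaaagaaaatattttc
The match in RARB begins 52 bases before the start. On either strand the same pattern stood in 17 of 35116 promoter windows (0.0484%). It also holds TTCACCGAA, a match to TTCNNNGAA, the pattern that STAT factors bind, so the patterns overlap. TTCNNNGAA was found in 6 of 90 windows of the 37 receptors with an entry (6.67%) and in 6.57% of all windows. Receptors with it were RARB (2 of 4 windows), ESR1, ESRRB and NR3C1. RARB passed the test, ESR1 and NR3C1 did not, and ESRRB was not tested. The 37 receptors with an entry are not the 37 tested, as NR2F6, NR4A2, NR0B2, VDR and HNF4G had no entry. The core hexamer AGGTCA stood in 15.6% of the receptors' windows and 12.1% of all, and the interferon-response core, GAAA repeated after 2 bases, in 2.22% and 3.02%, counting either strand. Windows of the same gene can overlap, so the same site can count in several windows, as AGGTCA did in ESR2 and PPARG. A match is a description of these letters only.

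FXR (NR1H4) senses bile acids and lowers their synthesis. NR1H4, on chromosome 12 from 100473708 to 100564413, had 48.1, 43.5 and 43.1 CPM in libraries labelled PTPF, against 29.9, 32.3 and 33.2 CPM in those labelled STATF. No library of one group reached the other, and the log2 fold change was 0.50 (SE 0.0647, edgeR adjusted p = 1.38e-06), or 1.41-fold. The oxysterol receptors LXR alpha (NR1H3) and LXR beta (NR1H2), which raise cholesterol efflux, did not pass. NR1H3 averaged 23.1 ± 1.58 CPM in libraries labelled PTPF, against 20.6 ± 0.577 CPM in those labelled STATF (SD, n = 3 each), without overlap of the groups and with an edgeR adjusted p of 0.0995. It shares 4.17% of its exon bases with the antisense gene ACP2, which was lower (log2 fold change -0.40). NR1H2 averaged 69.9 ± 6.52 CPM in libraries labelled PTPF, against 64.7 ± 3.37 CPM in those labelled STATF (SD, n = 3 each). Without PTPF replicate 2 both LXR genes passed as higher, with edgeR adjusted p of 0.0444 for NR1H3 and 0.0239 for NR1H2.

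SHP (NR0B2) has no DNA-binding domain, is induced by FXR and represses other nuclear receptors. It had 1, 3 and 4 counts in libraries labelled PTPF, against 13, 6 and 20 counts in those labelled STATF, too few for the filter. In the fit with no filter its log2 fold change was -2.08 (edgeR adjusted p = 0.0251). That value rests on 1 to 20 counts per library and was not followed through the other alternatives. Of 11 tested genes on a list of FXR targets, 0 were higher and 3 lower in the PTPF-labelled libraries. These are 27.3%, near the 21.6% of all genes tested. This list and those below were chosen with earlier results of these data known. The bile acid importer SLC10A1 averaged 4.34 ± 1.26 CPM in libraries labelled PTPF, against 11.8 ± 1.45 CPM in those labelled STATF, and BAAT, which conjugates bile acids, 79.6 ± 4.97 CPM under PTPF and 155 ± 14.7 CPM under STATF (SD, n = 3 each). UGT2B4, a glucuronosyltransferase with close relatives that can share reads, had a log2 fold change of -0.58. FGF19, a hormone induced by FXR, had 0 counts in every library. The median log2 fold change of the list was 0.04, against 0.00 over all genes tested. The list was not split into genes that FXR raises and genes that it lowers, so its counts and median have no single direction to be read against. Of 10 LXR targets tested, the cholesterol exporter ABCA1 was higher (0.43), and ABCG8 (-0.25) and SMPDL3A (-0.30) were lower, 30.0% against 21.6% of all genes. The ABCG8 call was lost without PTPF replicate 1 (edgeR adjusted p = 0.123), PTPF replicate 2 (0.111), STATF replicate 1 (0.0865) or STATF replicate 3 (0.0642).

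The PPARs bind fatty acids. PPARA drives fatty acid oxidation in hepatocytes, PPARD acts broadly and PPARG favours fat storage. PPARA had 99.0, 119 and 126 CPM in libraries labelled PTPF, against 133, 139.8 and 128 CPM in those labelled STATF. PTPF replicate 1 was the lowest of the 6, and the groups came close without overlapping. The log2 fold change was -0.22 (SE 0.0708, edgeR adjusted p = 0.0311), and without PTPF replicate 1 it was -0.12 (adjusted p = 0.114). The call was also lost without STATF replicate 1 (0.0812) or STATF replicate 2 (0.129). PPARD had 46.6, 46.3 and 47.9 CPM in libraries labelled PTPF, against 42.7, 42.1 and 36.3 CPM in those labelled STATF, with STATF replicate 3 the lowest. Its log2 fold change was 0.22 (SE 0.0643, edgeR adjusted p = 0.0152), and it did not pass without STATF replicate 3 (adjusted p = 0.141), without PTPF replicate 3 (0.0614) or with library totals (0.107). PPARG averaged 7.27 ± 0.250 CPM in libraries labelled PTPF, against 8.09 ± 0.729 CPM in those labelled STATF (SD, n = 3 each), with overlapping groups. Per gene length, PPARD stood at 1.40, 1.15 and 1.13 times PPARA in libraries labelled PTPF. In those labelled STATF it stood at 0.950, 0.893 and 0.842 times PPARA. The order of the pair thus differed between the groups by this measure only, as PPARA was above PPARD in CPM in every library. The ratio is among the 15 computed after the values were seen. It had to separate, as PPARD was higher and PPARA lower without overlap.

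Of 17 PPARA targets, 2 were higher and 11 lower in PTPF-labelled libraries, a share of 76.5% against 21.6% of all genes. Their median log2 fold change was -0.37. The list was chosen with earlier results of these data known, so this share is a description only. EHHADH, a peroxisomal oxidation enzyme, had a log2 fold change of -0.50, and the fatty acid hydroxylase CYP4A11, whose close relatives can share reads, -1.52. CREB3L3, a hepatic transcription factor, was higher at 576 ± 35.2 CPM in libraries labelled PTPF, against 302.9 ± 3.02 CPM in those labelled STATF (SD, n = 3 each). The coactivator PPARGC1A, which works with PPARA and the ERR receptors, averaged 27.7 ± 1.33 CPM in libraries labelled PTPF, against 38.4 ± 1.23 CPM in those labelled STATF (log2 fold change -0.47, edgeR adjusted p = 2.55e-06, n = 3 each).

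RORA and RORB activate, and the REV-ERB proteins (NR1D1 and NR1D2) repress, genes of the circadian clock through the same DNA element. RORA had 17.7, 19.0 and 18.0 CPM in libraries labelled PTPF, against 22.2, 21.5 and 23.2 CPM in those labelled STATF, a log2 fold change of -0.29 with an SE of 0.0718 (edgeR adjusted p = 0.00379). RORB, best known from brain and retina, had 16.5, 17.2 and 19.4 CPM in libraries labelled PTPF, against 22.4, 23.0 and 22 CPM in those labelled STATF, a log2 fold change of -0.34 with an SE of 0.0751 (edgeR adjusted p = 0.00120). The groups did not overlap for either gene. Per gene length, RORB made up 63.3% ± 2.18 of the ROR pair in libraries labelled PTPF, against 64.1% ± 1.37 in those labelled STATF (SD, n = 3 each), ranges that overlapped. The 2 lie on different chromosomes, RORA on 15 (60488284 to 61229319) and RORB on 9 (74497365 to 74693177). RORA shares 5.32% of its exon bases with genes of at most 8 counts in any library.

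NR1D2 had 29.1, 28.5 and 28.4 CPM in libraries labelled PTPF, against 32.2, 31.7 and 33.6 CPM in those labelled STATF, a log2 fold change of -0.18 with an SE of 0.0628 (edgeR adjusted p = 0.0370). That call was lost on leaving out any library but PTPF replicate 1 (adjusted p 0.0740 to 0.140). NR1D1 averaged 12.1 ± 1.78 CPM in libraries labelled PTPF, against 13.3 ± 1.02 CPM in those labelled STATF (SD, n = 3 each) and did not pass, with a 95% interval from -0.33 to 0.07. NR1D1 shares 9.49% of its exon bases with THRA on the other strand, so part of the reads of either cannot be told apart without strand. Of 15 clock genes, 4 were higher and 4 lower, 53.3% against 21.6% of all genes. NFIL3, which represses genes through the D-box element, was higher (log2 fold change 0.68), as was BHLHE40 (0.46), while TEF (-0.48) and HLF (-0.53), activators at the same element as NFIL3, were lower.

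The thyroid hormone receptors raise metabolic rate in liver. THRA averaged 60.7 ± 2.97 CPM in libraries labelled PTPF, against 66.9 ± 1.48 CPM in those labelled STATF (SD, n = 3 each), without overlap, but at an edgeR adjusted p of 0.0813. THRB averaged 38.2 ± 3.59 CPM in libraries labelled PTPF, against 36.9 ± 1.97 CPM in those labelled STATF (SD, n = 3 each), with a 95% interval of the log2 fold change from -0.09 to 0.19. Of 7 tested thyroid hormone targets, 0 were higher and 3 lower, 42.9% against 21.6% of all genes. DIO1, the deiodinase that activates thyroid hormone, averaged 5.26 ± 0.540 CPM in libraries labelled PTPF, against 13.2 ± 0.516 CPM in those labelled STATF (SD, n = 3 each). The thyroxine carrier SERPINA7 had a log2 fold change of -0.81 and GPD2 of -0.28. The vitamin D receptor VDR, on chromosome 12 from 47841537 to 47943048, had 11.6, 12.3 and 12.1 CPM in libraries labelled PTPF, against 15.1, 14.0 and 13.4 CPM in those labelled STATF, with a log2 fold change of -0.24 (edgeR adjusted p = 0.0389). It did not pass on leaving out any library but STATF replicate 3 (adjusted p 0.0594 to 0.185).

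**Figure D3:**
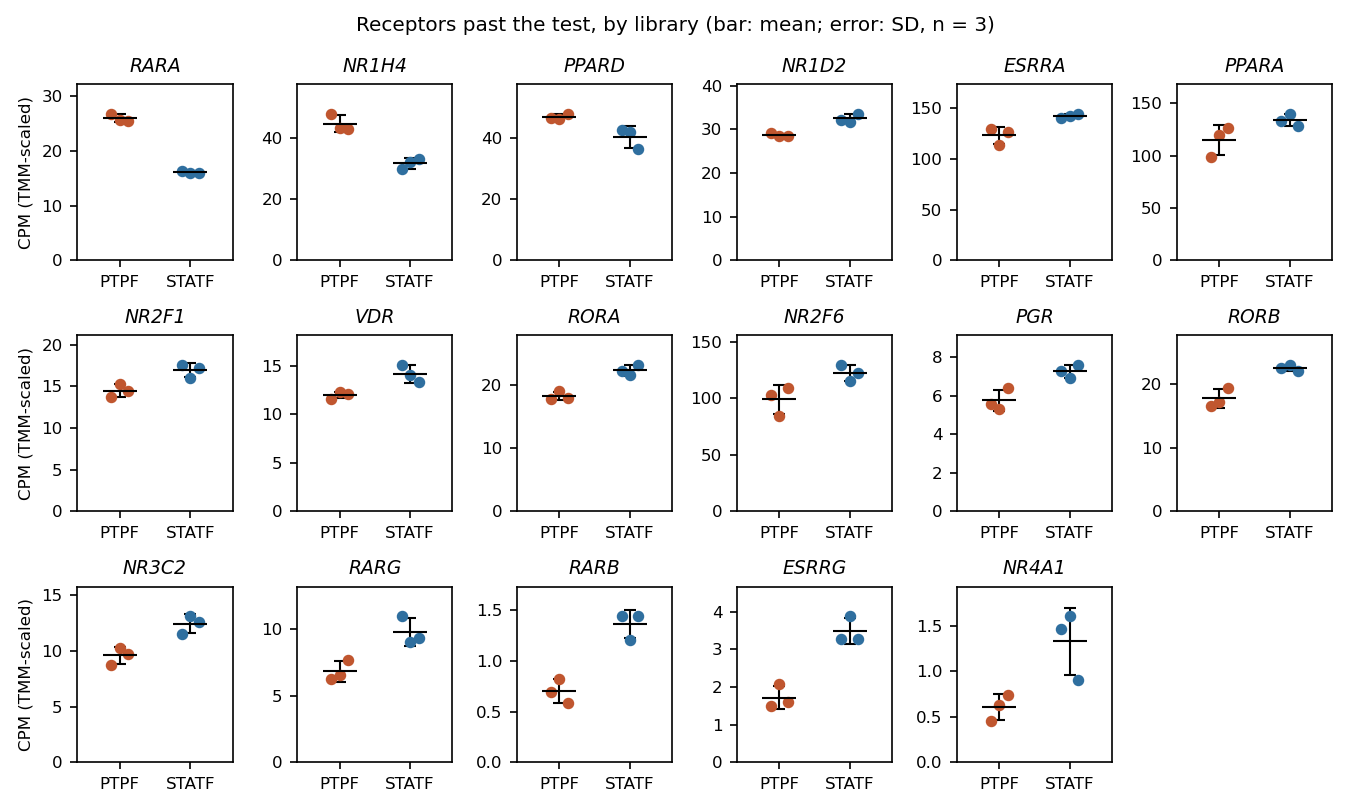
CPM (vertical axis, from 0) of the 17 receptors that passed the test, in the 3 PTPF-labelled and the 3 STATF-labelled libraries, ordered by fold change. Points are libraries and bars the mean with its SD; RARA, NR1H4 and PPARD are higher in PTPF-labelled libraries and the other 14 lower, without overlap of the groups in any panel.

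The retinoid X receptors are the common partners of RAR, PPAR, LXR, FXR, VDR and thyroid hormone receptors. RXRA had 145, 149 and 162 CPM in libraries labelled PTPF, against 158, 156 and 156 CPM in those labelled STATF, with overlapping groups and a 95% interval of the log2 fold change from -0.16 to 0.07. RXRB averaged 54.5 ± 1.47 CPM in libraries labelled PTPF, against 51.7 ± 1.86 CPM in those labelled STATF (SD, n = 3 each), also with overlap, and shares 6.22% of its exon bases with the antisense gene SLC39A7, which was higher (log2 fold change 0.22). RXRG had 0, 0 and 2 counts in libraries labelled PTPF, against 2, 1 and 6 counts in those labelled STATF. HNF4A, a master regulator of hepatocyte genes, averaged 138 ± 7.58 CPM in libraries labelled PTPF, against 152 ± 3.23 CPM in those labelled STATF (SD, n = 3 each), without overlap, at an edgeR adjusted p of 0.0778. It passed with library totals (log2 fold change -0.20, adjusted p = 0.00731) and without PTPF replicate 3 (adjusted p = 0.0429). HNF4G averaged 7.45 ± 0.563 CPM in libraries labelled PTPF, against 8.43 ± 0.319 CPM in those labelled STATF (SD, n = 3 each) and did not pass. Of 15 HNF4A targets, 1 was higher, the protease inhibitor SERPINA1 (log2 fold change 0.71), and 4 were lower, 33.3% against 21.6% of all genes. Among these G6PC, the last enzyme of glucose release, averaged 5.15 ± 1.58 CPM in libraries labelled PTPF, against 24.8 ± 3.92 CPM in those labelled STATF (SD, n = 3 each). The urea cycle enzyme OTC (-0.60) and the lipoprotein assembly protein MTTP (-0.21) were lower as well, and MTTP did not pass without PTPF replicate 2 (edgeR adjusted p = 0.0588) or STATF replicate 3 (0.0670).

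The COUP-TF group are orphan receptors that often repress. NR2F6 had 103, 84.5 and 109.6 CPM in libraries labelled PTPF, against 129.7, 115.5 and 122 CPM in those labelled STATF, a log2 fold change of -0.31 with an SE of 0.0770 (edgeR adjusted p = 0.00704). PTPF replicate 2 was the lowest, and the adjusted p was 0.119 without PTPF replicate 1. NR2F1 had 13.7, 15.3 and 14.5 CPM in libraries labelled PTPF, against 17.6, 16 and 17.2 CPM in those labelled STATF (log2 fold change -0.22, edgeR adjusted p = 0.0422), and was lost on leaving out PTPF replicate 1 or 3 or STATF replicate 1 or 3 (adjusted p 0.0976 to 0.158). NR2F2 averaged 29.1 ± 2.35 CPM in libraries labelled PTPF, against 32.5 ± 1.14 CPM in those labelled STATF (SD, n = 3 each), with overlap and an edgeR adjusted p of 0.104. The testicular receptors NR2C1 and NR2C2 had log2 fold changes of 0.00 and 0.02, with 95% intervals from -0.17 to 0.17 and from -0.11 to 0.15, and 11.4% of the NR2C2 exon bases belong also to FGD5-AS1 and MRPS25 on the other strand.

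Among steroid receptors, the glucocorticoid and mineralocorticoid receptors both bind cortisol. The glucocorticoid receptor NR3C1 had 54.4, 60.6 and 58.8 CPM in libraries labelled PTPF, against 56.2, 58.4 and 58.4 CPM in those labelled STATF, with a 95% interval of the log2 fold change from -0.11 to 0.13. The mineralocorticoid receptor NR3C2, on chromosome 4 from 148078762 to 148444698, had 8.74, 10.3 and 9.77 CPM in libraries labelled PTPF, against 11.5, 13.2 and 12.6 CPM in those labelled STATF. The groups did not overlap and the log2 fold change was -0.37 (SE 0.0930, edgeR adjusted p = 0.00409). Per gene length, NR3C1 stood at 4.48, 4.24 and 4.33 times NR3C2 in libraries labelled PTPF. In those labelled STATF it stood at 3.52, 3.19 and 3.33 times, a ratio also among the 15 computed after the values were seen. HSD11B1, which makes cortisol from cortisone, was lower (log2 fold change -0.46). Of 12 glucocorticoid receptor targets, 2 were higher, SDS (1.61) and SGK1 (0.93), and 4 lower, among them TAT (-0.58) and FKBP5 (-0.34). These are 6 of 12, where 21.6% of all genes passed. The progesterone receptor PGR had 5.58, 5.34 and 6.40 CPM in libraries labelled PTPF, against 7.30, 6.92 and 7.62 CPM in those labelled STATF (log2 fold change -0.33, edgeR adjusted p = 0.0373), and held on leaving out PTPF replicate 3 only (adjusted p otherwise 0.0605 to 0.144). The estrogen receptors ESR1 (17 to 29 counts per library) and ESR2 (7 to 22 counts) did not pass. ESR2 averaged 0.540 ± 0.111 CPM in libraries labelled PTPF, against 0.305 ± 0.112 CPM in those labelled STATF (SD, n = 3 each), and its log2 fold change had a 95% interval from -0.04 to 1.64.

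The estrogen-related receptors need no ligand and act with PPARGC1A on genes of energy metabolism. ESRRG, on chromosome 1 from 216503246 to 217137755, had 1.49, 2.07 and 1.59 CPM in libraries labelled PTPF, against 3.28, 3.89 and 3.29 CPM in those labelled STATF. The highest PTPF-labelled library was below the lowest STATF-labelled one, and the log2 fold change was -1.02 (SE 0.178, edgeR adjusted p = 9.93e-05), or 2.02-fold lower. ESRRA had 129, 113.7 and 127 CPM in libraries labelled PTPF, against 139.98, 142 and 144 CPM in those labelled STATF, a log2 fold change of -0.21 with an SE of 0.0568 (edgeR adjusted p = 0.00880). The ESRRA call was lost without PTPF replicate 2 (adjusted p = 0.0707) or STATF replicate 3 (0.0527). ESRRA shares 9.37% of its exon bases with TRMT112 on the other strand, which was higher (log2 fold change 0.21). ESRRB had 5 to 8 counts in libraries labelled PTPF, against 7 to 12 counts in those labelled STATF and was not tested.

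The NR4A receptors are immediate early genes that act without a ligand. NR4A1 had 15, 23 and 24 counts in libraries labelled PTPF, against 55, 67 and 34 counts in those labelled STATF, or 0.455, 0.627 and 0.735 CPM under PTPF and 1.47, 1.61 and 0.909 CPM under STATF. STATF replicate 3 stood nearest to the PTPF-labelled libraries, and the groups did not overlap. The log2 fold change was -1.13 (SE 0.297, edgeR adjusted p = 0.00614), or 2.19-fold lower, and without STATF replicate 2 it was -0.97 (adjusted p = 0.0506). NR4A2 averaged 3.40 ± 0.329 CPM in libraries labelled PTPF, against 3.57 ± 0.147 CPM in those labelled STATF (SD, n = 3 each). NR4A3 averaged 0.465 ± 0.184 CPM in libraries labelled PTPF, against 0.513 ± 0.176 CPM in those labelled STATF (SD, n = 3 each). Neither passed, and the NR4A3 interval, from -0.96 to 0.68, leaves its difference undetermined at 12 to 24 counts per library.

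The remaining receptors were NR5A2 (LRH-1), which drives bile acid synthesis, and NR6A1, known from germ cells. NR5A2 averaged 11.4 ± 0.437 CPM in libraries labelled PTPF, against 11.0 ± 1.08 CPM in those labelled STATF (SD, n = 3 each), with overlap. NR6A1 averaged 5.01 ± 0.468 CPM in libraries labelled PTPF, against 3.85 ± 0.760 CPM in those labelled STATF (SD, n = 3 each). Its edgeR adjusted p was 0.0710, and it passed without STATF replicate 1 (0.0353) or with a replicate block (0.0326). The steroidogenic factor NR5A1 had 1, 0 and 1 counts in PTPF-labelled and 0 in each STATF-labelled library. NR0B1 had 0 counts in all 6 libraries, which allows up to 3 counts, or 0.0735 to 0.0903 CPM. This limit covers counting error only.

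Levels of different receptors were compared as CPM per kilobase of gene length, so the order depends on the length taken for each gene. In CPM alone, RXRA and HNF4A averaged above ESRRA in both groups. Per kilobase, ESRRA was the most abundant at 40.6 ± 2.72 in libraries labelled PTPF, against 46.9 ± 0.702 in those labelled STATF. NR2F6 followed at 37.0 ± 4.87 under PTPF and 45.8 ± 2.66 CPM per kilobase under STATF (SD, n = 3 each). ESRRA and NR2F6 overlapped in range over the 6 libraries. HNF4A (18.9 ± 1.04 under PTPF and 20.8 ± 0.442 under STATF) and NR1H2 (18.6 ± 1.74 under PTPF and 17.2 ± 0.899 under STATF) came next and overlapped as well, below NR2F6 in every library. RXRA (13.7 ± 0.804 under PTPF and 14.1 ± 0.115 under STATF) and RXRB (13.9 ± 0.374 under PTPF and 13.2 ± 0.475 under STATF) followed. By the mean over all 6 libraries NR1H4 was next, at 12.4 ± 0.762 CPM per kilobase under PTPF and 8.77 ± 0.471 under STATF (SD, n = 3 each). Under STATF alone PPARA (10.1), THRA (9.61) and PPARD (9.06 CPM per kilobase) averaged above it. In 33 of the 41 neighbouring pairs of this order the ranges over the 6 libraries overlapped. In CPM, 32 of the 42 receptors exceeded 1 in every library, 24 exceeded 10, and 3 exceeded 100. The sum over all 42 was 1278, 1261 and 1361 CPM in libraries labelled PTPF, against 1389, 1374 and 1366 CPM in those labelled STATF, without overlap.

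**Figure D4:**
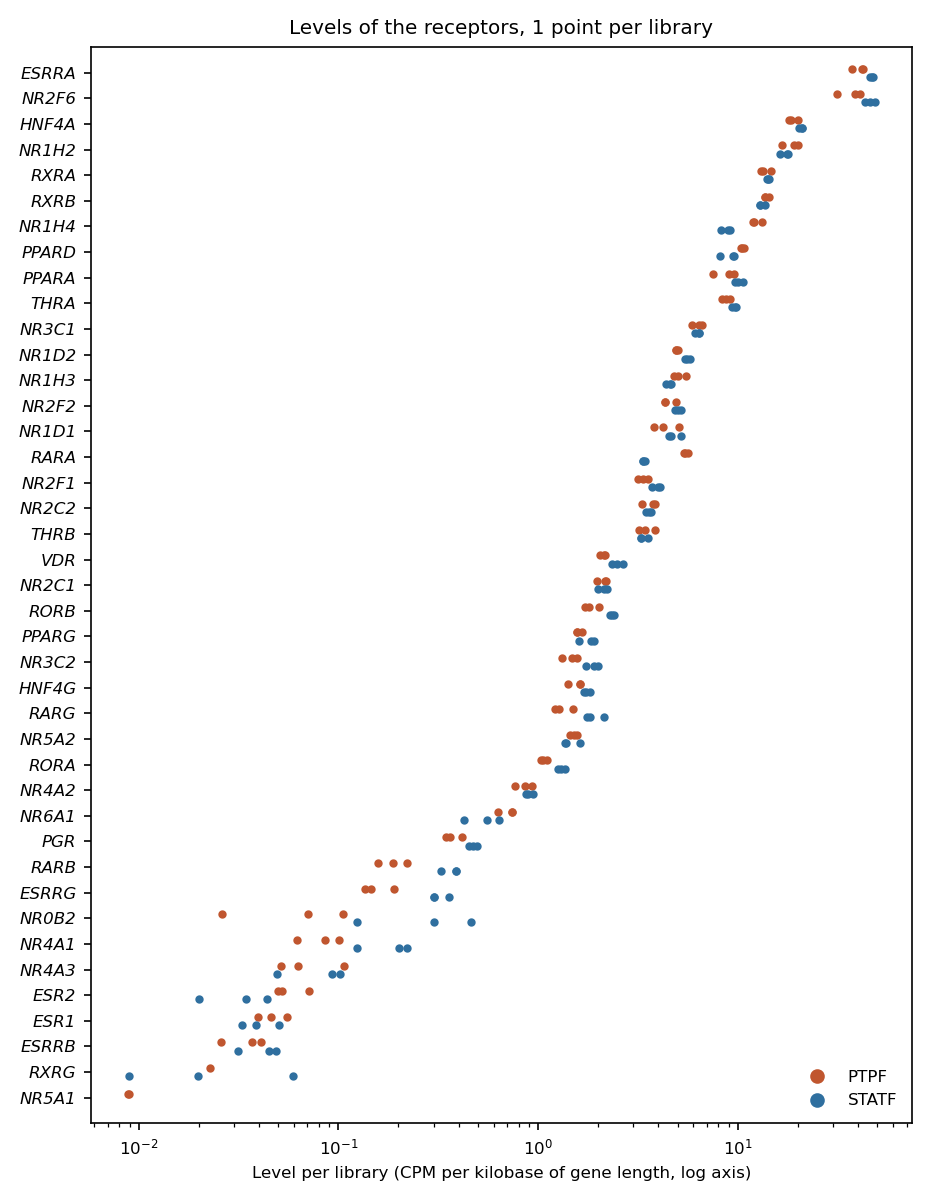
Level of each receptor with at least 1 count (horizontal log axis, CPM per kilobase of gene length), 1 point per library, ordered by the mean. ESRRA and NR2F6 lead, and the receptors below RORA include the scarce NR4A, estrogen and SHP transcripts; libraries with 0 counts have no point.

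By position, some of the receptors lie near each other in the genome. On chromosome 17, THRA (40058290 to 40093867) overlaps NR1D1 at its end, and RARA begins 208467 bases after NR1D1. On chromosome 3 the order is NR1D2, THRB and RARB, without overlap, with gaps of 136535 and 678576 bases. Log2 fold changes along chromosome 17 were -0.14 for THRA, -0.13 for NR1D1 and 0.69 for RARA, and along chromosome 3 they were -0.18 for NR1D2, 0.05 for THRB and -0.95 for RARB. Of these 6 genes RARA, NR1D2 and RARB passed the test, and the RAR gene had the log2 fold change of largest size in each cluster. On chromosome 12, NR4A1 and RARG, 1151060 bases apart, were both lower.

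Cofactors were measured from lists chosen with earlier results of these data known. Of 15 coactivators, 3 were higher and 2 lower, 33.3% against 21.6% of all genes. NCOA7 averaged 82.7 ± 5.32 CPM in libraries labelled PTPF, against 51.9 ± 3.76 CPM in those labelled STATF (SD, n = 3 each), and PPRC1, a relative of PPARGC1A, had a log2 fold change of 0.36. KAT2B, a histone acetyltransferase, was lower (-0.34). Of 10 corepressors, TBL1XR1 was higher (0.26) and NCOR1 lower (-0.22), and 2 of 10 is near the 21.6% of all genes. The NCOR1 call was lost without PTPF replicate 1 (edgeR adjusted p = 0.0960), STATF replicate 1 (0.0833) or STATF replicate 2 (0.0898), and its log2 fold change without PTPF replicate 1 was -0.12. Of 8 chaperones of steroid receptors, HSP90AB1 was higher (0.20) and HSP90AA1 lower (-0.22), genes whose close copies can share reads. These are 25.0% of the list, near the 21.6% of all genes. HSP90AB1 did not pass with library totals (edgeR adjusted p = 0.0526) or on leaving out any STATF-labelled library (0.0604 to 0.0782), and HSP90AA1 not without PTPF replicate 3 (0.0837) or STATF replicate 2 (0.0562).

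Of 15 tested genes that make or inactivate ligands, 4 were higher and 4 lower, 53.3% against 21.6% of all genes. In the retinoid pathway, RDH10, which oxidises retinol to retinal, was higher at 35.9 ± 0.953 CPM in libraries labelled PTPF, against 27.7 ± 0.188 CPM in those labelled STATF. ALDH1A1, which oxidises retinal to retinoic acid, was lower at 316 ± 18.2 CPM in libraries labelled PTPF, against 442.5 ± 8.11 CPM in those labelled STATF (SD, n = 3 each). Other retinoid genes of this list also passed, in both directions, and are not named, as at most 4 genes per list were. Of 7 retinoic acid targets tested, 3 were higher and 1 lower, 57.1% against 21.6% of all genes. TGM2, a transglutaminase, averaged 720.8 ± 18.4 CPM in libraries labelled PTPF, against 403 ± 38.3 CPM in those labelled STATF (SD, n = 3 each), and RARRES1 had a log2 fold change of 0.46. RARRES2 (0.18, edgeR adjusted p = 0.0428), whose groups overlapped, was lost with library totals (0.161) and without PTPF replicate 3 (0.234), STATF replicate 1 (0.178) or STATF replicate 2 (0.1999). The retinoic acid hydroxylase CYP26B1 was lower (-0.37, edgeR adjusted p = 0.0319), a call lost with DESeq2 (0.0731) and without PTPF replicate 1 (0.1096), PTPF replicate 3 (0.109), STATF replicate 1 (0.111) or STATF replicate 2 (0.0970).

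**Figure D5:**
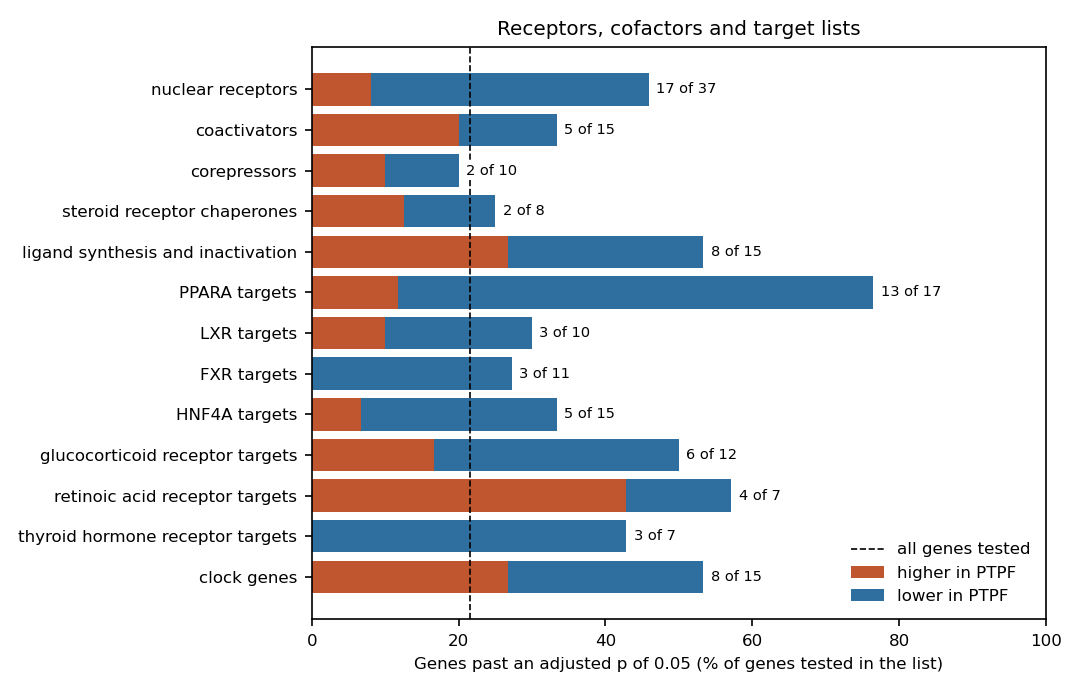
Percent of tested genes past an adjusted p of 0.05 (horizontal axis) among the receptors and in each of the 12 lists. Bars are split by direction, with the count beside each. Receptors and lists were chosen with earlier results of these data known. The dashed line marks the 21.6% of all genes tested, which the corepressors (2 of 10) lie closest to and the PPARA targets (13 of 17) exceed most.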

How the data were processed

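Polyadenylated RNA of 6 HepaRG libraries was sequenced. Per the submitters' processing notes, reads passed through CASAVA 1.8, HISAT2 2.0.5 and featureCounts 1.5.0-p3, and the build was GRCh38. Strand setting, annotation release, multi-mapping and filters: not given in the sources used here. Raw counts per gene were deposited by the authors, and the deposited gene length (an other unit, in bases) gave CPM per kilobase.

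Libraries were grouped by title. After filterByExpr and TMM scaling, the quasi-likelihood test of edgeR 4.0.16 (R 4.3.3) compared the groups with no covariate, and p-values were adjusted by Benjamini-Hochberg over all 17844 genes tested. Positive log2 fold changes mean higher in PTPF-labelled libraries. Alternatives were RLE, upper-quartile and total scaling, no filter or 50 counts in 3 libraries, DESeq2 1.42.0, limma-voom 3.58.1, a replicate block, each library left out and an adjusted p of 0.01. The scripts were tested on simulated data. Receptors and the 12 gene lists were chosen with earlier results of these data known. Any receptor could be named, with up to 4 genes per list by smallest adjusted p. A gene that this rule took is not reported here. Genes at 0 were named after their values were seen. Exon overlaps came from GENCODE 29, promoter sequences from RefSeq. Replicates differed by more than sampling noise in every pair (chi-square over its degrees of freedom, 4.35 to 12.2).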

Additional observations from a re-analysis of the deposited data

How the results depend on the processing

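Among the 17 receptors called, 8 calls held under all 15 alternatives, 9 were lost under at least 1, and none reversed; 6 of the others passed under at least 1. Without PTPF replicate 2, 5 receptors were higher, and leaving out each library in turn gave 2 to 5 higher and 9 to 14 lower. With an adjusted p of 0.01, 9 receptors were lower, and 1137 of all genes were higher, by construction. With library totals as the only scaling 1164 of all genes were higher (the cause was not tested). DESeq2 called 3 receptors higher and 10 lower, limma-voom 3 and 13. Whether replicate numbers pair the libraries cannot be settled with 3 libraries per group. Same-numbered libraries deviated together at r of 0.035, 0.058 and 0.001 across genes, and the other pairs at -0.07 to 0.033. Some libraries, but not all, correlated best with their own number. With a replicate block 4 receptors were higher and 14 lower, and over all genes 1928 were higher and 2217 lower, against 1801 and 2062 without it. STAT3 passed under all alternatives and PTPRD under none. Receptors under about 1 CPM, such as NR4A3, ESR1 and ESR2, are limited by depth.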
